A study of Mus musculus with 27 samples.

Results

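Photoreceptor fate transcription factors are the DNA-binding proteins that turn a postmitotic retinal precursor into a rod or a cone and keep that identity in the mature cell. The 8 factors described here, of 55487 genes in the deposited count table, were Otx2, Crx, Neurod1, Rorb, Prdm1, Nrl, Nr2e3 and Thrb, taken by gene symbol. They were read in retinas of mice aged 9 months, by 3′ mRNA sequencing, a method that reads the end of each polyadenylated transcript. Counts could be obtained for 7 of the 8 factors.

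The study crossed heterozygous loss of Gne, the enzyme that starts sialic acid synthesis, with loss of C3, the central complement component. The 4 groups were wildtype mice (Gne+/+ C3+/+, n = 7), Gne+/- mice with both copies of C3 (n = 7), C3-/- mice with both copies of Gne (n = 7) and Gne+/- C3-/- mice (n = 6). Every library came from a separate mouse, from whole retina, and was sequenced in run 1 (5 wildtype, 5 Gne+/-, 4 C3-/- and 4 Gne+/- C3-/-) or in run 2 (2, 2, 3 and 2). The labels name no treatment, strain, sex, Cre line or transgene.

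In the developing retina, OTX2 sets the photoreceptor programme in motion and acts above Crx and Prdm1. CRX, a homeodomain protein close to OTX2, then activates many rod and cone genes. PRDM1 (also named Blimp1) is a zinc-finger repressor that holds down bipolar cell genes in photoreceptor precursors, and RORB acts above NRL. NRL and its target NR2E3 direct cells to the rod fate, with NR2E3 holding down cone genes, while the thyroid hormone receptor encoded by Thrb sets the green opsin pattern of cones. NEUROD1 is a basic helix-loop-helix factor that maintains photoreceptors.

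OTX2 and CRX recognise the letters TAATCC (or their reverse complement), so the upstream sequence of the factors was searched for these letters. The 250 bases before each start site of the factors in RefSeq (GRCm38.p6) gave 13 windows, of which 3 held a match, in Otx2, Crx and Thrb. Among 32851 windows of the same length over all genes, 6.25% held one. Otx2, Rorb and Thrb each gave more than 1 window, and the difference from the share over all genes was not tested. The Otx2 window with the match lies wholly within annotated exons (250 of 250 bases). The matching Thrb and Crx windows hold 68 and 13 such bases. A half-site of NRL (TGCTGA) and one of nuclear receptors (AGGTCA) were also searched, in windows that take in 50 bases after the start. They were found in 4 and 1 of the 13 windows, against 19.5% and 16.3% over all genes, likewise without a test. The upstream windows of Crx and Prdm1 are shown, written 5′ to 3′ on the strand of the gene with matches in capitals, because Crx holds 2 matches and Prdm1 is the factor whose level differed with C3 genotype. The Crx window lies at chr7:15879956-15880205 (minus strand), and the Prdm1 window at chr10:44458749-44458998 (minus strand).
Crx: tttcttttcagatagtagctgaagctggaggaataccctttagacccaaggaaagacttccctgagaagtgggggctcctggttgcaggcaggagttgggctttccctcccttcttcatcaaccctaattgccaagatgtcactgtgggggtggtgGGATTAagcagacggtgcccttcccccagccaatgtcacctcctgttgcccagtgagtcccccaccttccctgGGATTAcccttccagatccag
Prdm1: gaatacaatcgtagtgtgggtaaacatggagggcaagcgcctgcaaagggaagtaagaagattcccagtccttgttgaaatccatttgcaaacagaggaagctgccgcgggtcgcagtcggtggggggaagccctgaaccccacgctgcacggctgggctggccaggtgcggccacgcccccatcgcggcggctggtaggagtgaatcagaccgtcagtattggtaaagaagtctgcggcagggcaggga
The Prdm1 window precedes the RefSeq start site and lies inside the longer span that the Ensembl annotation of the counts gives Prdm1, so it is not the window before that span's 5′ end. It holds no match, which says only that these letters are not in this window.

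Total counts per library were 13.5 to 21.3 M in run 1 (n = 18) and 14.9 to 34.2 M in run 2 (n = 9). Levels are given in CPM, the counts of a gene relative to the scaled total of its library, and differences as log2 fold changes from edgeR's quasi-likelihood test with the run as a term, with Benjamini-Hochberg adjustment over all 17409 tested genes; an adjusted p under 0.05 counts as called. The targeted genes followed the labels: Gne was lower in Gne+/- than in wildtype mice (fold 0.343, adjusted p = 3.32e-09, edgeR), and C3 was lower in C3-/- than in wildtype mice (fold 0.0095, adjusted p = 6.08e-07, edgeR). The summed level of 14 measured rod outer segment genes was 70774 to 103636 CPM in run 1 and 35650 to 45494 CPM in run 2, and Rcvrn, whose whole span is overlapped by another gene, was listed at 0. Photoreceptor markers were thus abundant in every library. The summed level of 4 Y-linked genes was low in wildtype and high in C3-/- libraries of run 1 and the reverse in run 2. Within run 1 it was mixed in the Gne+/- mice (0.0508 to 627 CPM) and the Gne+/- C3-/- mice (0.565 to 591 CPM). For C3-/- against wildtype mice, and for both C3-/- against both C3+/+ groups, Prdm1 is also given with that level as a covariate. Prdm1 in the other comparisons and the gene lists are printed without it.

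Neurod1 (chromosome 2, 79452521 to 79456751, minus strand, GRCm38) was listed at 0 in 27 of 27 libraries. Its whole span lies within the annotated span of Cerkl, and the authors' counting left out reads that fall in more than 1 gene. All 1248 protein-coding genes covered in this way were at 0 in all libraries, against 12.4% of 11795 protein-coding genes without overlap. The 0 is therefore no measure of Neurod1 expression, and the values that follow concern 7 factors.

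**Figure D1:**
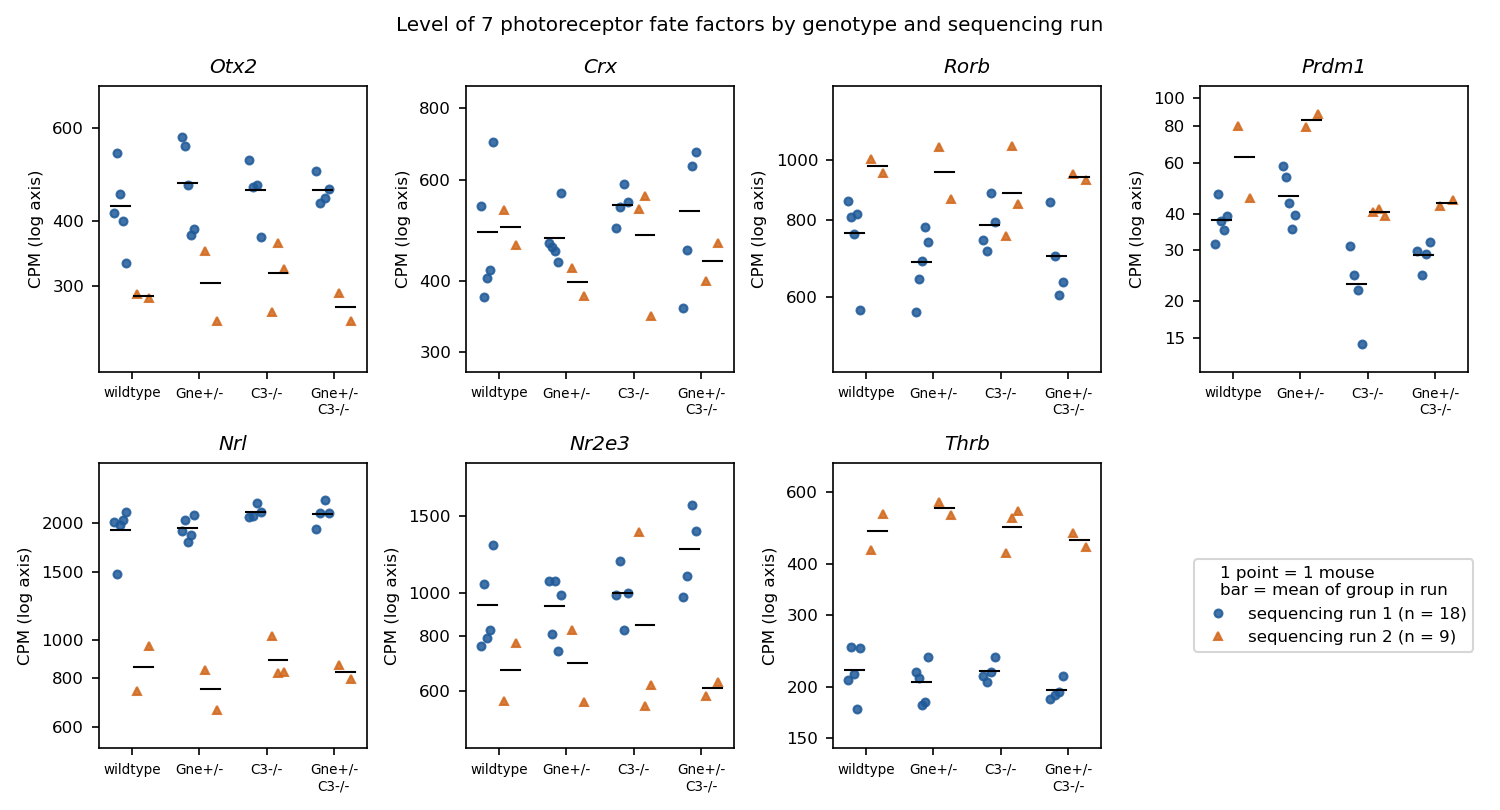
Level of the 7 measured factors in each mouse, in CPM on a log axis, by genotype (x axis) and sequencing run (circles run 1, triangles run 2); horizontal bars are means of a group in a run. Prdm1 lay lower in both C3-/- groups in each run, Nrl was higher and Thrb lower in all run 1 libraries than in all run 2 libraries.

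Prdm1 was the only one of the 7 factors whose level passed the test in any genotype comparison. Prdm1 (chromosome 10, 44437177 to 44528501, minus strand) has exons over 6.11% of its span and no overlap with another annotated gene. In run 1 the wildtype mice (numbers 1, 2, 4, 5 and 6) had Prdm1 at 31.4, 46.9, 37.7, 35.3 and 39.3 CPM, and the Gne+/- mice (1 to 5) had it at 58.4, 53.6, 43.4, 35.5 and 39.8 CPM. The C3-/- mice of the run (1, 2, 5 and 6) had it at 31.1, 24.7, 21.9 and 14.3 CPM, and the Gne+/- C3-/- mice (3 to 6) at 29.8, 24.6, 29.2 and 32.0 CPM. The C3-/- mice lay below all wildtype mice of the run, and the Gne+/- C3-/- mice below all Gne+/- mice.

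In run 2 the wildtype mice (7 and 8) had Prdm1 at 79.99 and 45.4 CPM, and the Gne+/- mice (7 and 8) at 79.7 and 88.0 CPM. The C3-/- mice (7, 8 and 9) had it at 40.7, 41.5 and 39.3 CPM, and the Gne+/- C3-/- mice (7 and 8) at 42.5 and 44.7 CPM. Again neither C3-/- group overlapped with its C3+/+ counterpart, although wildtype mouse 8 was within 1 CPM of the highest Gne+/- C3-/- mouse. By group means, the order in run 1 was Gne+/- (46.1 ± 9.60 CPM, SD, n = 5), wildtype (38.1 ± 5.73, n = 5), Gne+/- C3-/- (28.9 ± 3.09, n = 4) and C3-/- (23.0 ± 6.94, n = 4). In run 2 it was the same, with 83.9 ± 5.88 (n = 2), 62.7 ± 24.5 (n = 2), 43.6 ± 1.62 (n = 2) and 40.5 ± 1.07 CPM (n = 3). Gne+/- and wildtype mice overlapped in both runs, and within the C3-/- mice the ranges overlapped in run 1 and not in run 2.

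The comparison of Gne+/- C3-/- with Gne+/- mice asks what loss of C3 does where 1 copy of Gne is lost. Prdm1 fell by 0.76 on the log2 scale (SE 0.165, fold 0.591, 95% interval 0.468 to 0.745, adjusted p = 0.0358, edgeR). It was 1 of 7 measured factors called, against 0.19% of all tested genes called in this comparison (0.0977% as lower). It was also the 1 factor whose groups did not overlap in either run, lower in both, which held for 0.362% of all tested genes. The adjusted p rose above the threshold, to between 0.0531 and 0.124, when any 1 of 11 libraries was left out (Gne+/- mice 1, 2, 3, 7 or 8, or any of the 6 Gne+/- C3-/- mice), with 1 run alone (0.585 in run 1 and 0.276 in run 2), without the run term (-0.75, adjusted p = 1.00, edgeR) and with the mouse number as a replicate block in place of the run (-0.66, adjusted p = 0.218, edgeR). In bulk retina, fewer cells that express a gene and less of its RNA per cell cannot be told apart.

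The comparison of C3-/- with wildtype mice asks the same on the background of normal Gne. Prdm1 differed by -0.69 on the log2 scale (SE 0.158, fold 0.62, 95% interval 0.495 to 0.775), with an adjusted p of 0.0611 in edgeR, so that 0 of 7 factors passed, against 0.167% of all genes. DESeq2 gave -0.70 with an adjusted p of 0.00616, and RLE scaling in edgeR gave an adjusted p of 0.0474. With the Y-linked level as covariate the value was -0.68 (adjusted p = 0.101, edgeR). The adjusted p also stayed over the threshold in limma-voom (0.125). In edgeR it was 0.0885 with no low-count filter and 0.0546 with a stricter filter (over 1 CPM in at least 6 libraries). It was 0.564 in run 1 alone and 0.804 in run 2 alone (edgeR), and without the run term Prdm1 did not pass either. Prdm1 was the 1 factor whose groups did not overlap in either run, lower in both, against 0.236% of all genes. No test of a difference between the effects of C3 loss with 1 copy and with 2 copies of Gne passed: for Prdm1 that difference was -0.07 (SE 0.227, 95% interval -0.53 to 0.39, adjusted p = 1.00, edgeR), and 0 of 7 factors passed, against 0.0% of all genes.

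Both C3-/- groups were therefore also set against both C3+/+ groups in the same model, a comparison added after the values were seen. Prdm1 fell by 0.73 (SE 0.114, fold 0.605, 95% interval 0.515 to 0.711, adjusted p = 0.000231, edgeR, 13 against 14 mice). It was 1 of 7 factors called, against 0.569% of all genes (0.281% as lower), and its p ranked 26 of 17409. The difference was -0.72 in run 1 alone (adjusted p = 0.0379, edgeR) and -0.78 in run 2 alone (adjusted p = 0.0156, edgeR), and -0.72 with the Y-linked level as covariate (adjusted p = 0.000485, edgeR). In run 1 the 8 C3-/- mice lay at 14.3 to 32.0 CPM and the 10 C3+/+ mice at 31.4 to 58.4 CPM, with wildtype mouse 1 inside the range of the C3-/- mice. In run 2 the ranges were 39.3 to 44.7 CPM (n = 5) and 45.4 to 88.0 CPM (n = 4), without overlap. Among the alternatives run, the call ended without the run term (-0.66, adjusted p = 0.293, edgeR).

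Prdm1 is also made outside photoreceptors, in lymphoid and plasma cells and in some endothelium, so the markers of those cells were read in the same libraries. The summed level of 6 lymphoid and plasma cell markers was 10.6 to 32.7 CPM in the C3-/- and 17.2 to 34.0 CPM in the C3+/+ mice of run 1, and 14.8 to 21.9 against 14 to 19.3 CPM in run 2, with Ms4a1 at 0, wholly overlapped by another gene. Of 3 tested members 0 were called by edgeR, and 0 had an unadjusted p under 0.05, against 7.67% of all genes between both C3-/- and both C3+/+ groups, the share to set beside each such count in that comparison. The 4 endothelial markers (Cldn5, Pecam1, Cdh5 and Kdr) summed to 193 to 281 CPM in the C3-/- and 222 to 337 CPM in the C3+/+ mice of run 1, and to 134 to 158 against 184 to 220 CPM in run 2. The endothelial sum was thus lower in C3-/- mice in run 2 without overlap, while 0 of its 4 genes were called by edgeR and 1 had an unadjusted p under 0.05 (median log2 fold change -0.24, against -0.003 over all genes). Most counts in this sum were of Kdr, 104521 over all libraries, against 6630 of Pecam1, 1799 of Cldn5 and 1256 of Cdh5. Kdr was also the gene with that p (-0.26, unadjusted p = 0.0036, adjusted p = 0.26, edgeR), and Cldn5 was the 1 positive gene (0.26). The part of these cells in the Prdm1 difference was not tested.

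Markers of the lens, which can be carried along when a retina is taken out, also varied between mice, and in run 1 reached their highest sums in Gne+/- mice. The summed level of 7 lens markers in run 1 was 119 to 1654 CPM in Gne+/-, 3.03 to 157 CPM in Gne+/- C3-/-, 0.227 to 161 CPM in wildtype and 1.28 to 114 CPM in C3-/- mice. Of 6 tested members 0 were called by edgeR in any genotype comparison. All 6 were positive in Gne+/- against wildtype mice (median log2 fold change 3.75, 5 with an unadjusted p under 0.05), and all 6 were negative in Gne+/- C3-/- against Gne+/- mice (median -2.03, 1 with an unadjusted p under 0.05). In C3-/- against wildtype mice 4 were positive and 2 negative (median 0.28). In run 2 the sum was 3.36 to 4.3 CPM in Gne+/- and 1.25 to 64.2 CPM in Gne+/- C3-/- mice. It was 4.08 to 9.36 CPM in wildtype and 3.19 to 22.3 CPM in C3-/- mice of that run. The Gne+/- mice thus did not stand above wildtype mice in run 2. The part of lens RNA in the factors' values was not tested.

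Other genes near Prdm1 did not pass the test. Of 23 other tested genes within 2 Mb of Prdm1 on chromosome 10, 0 were called between both C3-/- and both C3+/+ groups (smallest adjusted p = 0.471, edgeR), and 1 had an unadjusted p under 0.05. Their log2 fold changes ran from -1.72 to 1.23 with a median of -0.03, and 12 were negative. Chromosome 10 held 4 of the 99 called genes (4.04%), namely Prdm1, Slc5a8, Tmpo and Gm48877, and 4.92% of all tested genes.

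**Figure D2:**
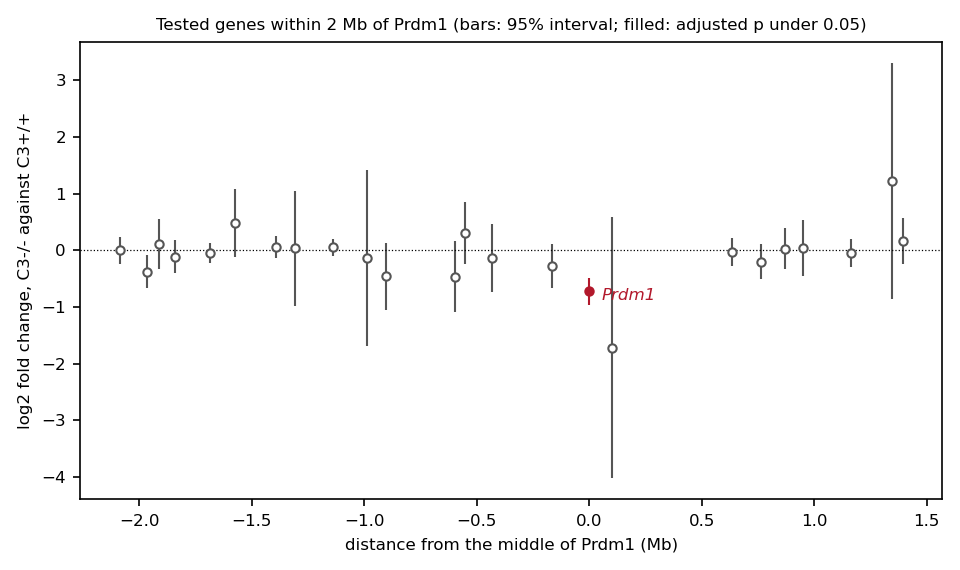
Log2 fold change of Prdm1 and 23 other tested genes within 2 Mb, both C3-/- groups against both C3+/+ groups, by distance of each gene's middle from that of Prdm1 (bars are 95% intervals, the filled point passed the adjusted threshold of 0.05). Prdm1 at -0.73 is the only filled point, and neighbours scatter around 0.

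Loss of a copy of Gne changed none of the 7 factors past the threshold. In Gne+/- against wildtype mice 0 of 7 were called (0.00574% of all genes), and Prdm1 stood at 0.32 (SE 0.156, 95% interval -0.0007 to 0.63, unadjusted p = 0.0505, adjusted p = 0.860, edgeR). In Gne+/- C3-/- against C3-/- mice 0 of 7 were called (0.00574% of all genes), with Prdm1 at 0.25 (SE 0.164, adjusted p = 1.00, edgeR). With both Gne+/- groups against both Gne+/+ groups, a comparison added after the values were seen, Prdm1 stood at 0.28 (SE 0.113, unadjusted p = 0.0175, adjusted p = 1.00, edgeR) and again 0 of 7 passed (0.00574% of all genes). In Gne+/- C3-/- against wildtype mice Prdm1 stood at -0.44 (SE 0.164, adjusted p = 0.746, edgeR), and 0 of 7 passed (0.155% of all genes). At an unadjusted p under 0.05, edgeR gave 0 of 7 factors in Gne+/- against wildtype mice, in Gne+/- C3-/- against C3-/- mice and for the interaction of both losses, and 1, Prdm1, in each other genotype comparison. Of all genes, 5.76%, 1.35% and 3.18% had such a p in the former 3 comparisons. The share was 4.49% in C3-/- against wildtype, 6.4% in Gne+/- C3-/- against Gne+/-, 4.96% in Gne+/- C3-/- against wildtype, 7.67% in the pooled C3 and 3.3% in the pooled Gne comparison. DESeq2 and limma-voom also called 0 of 7 in the Gne comparisons and in Gne+/- C3-/- against wildtype mice.

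**Figure D3:**
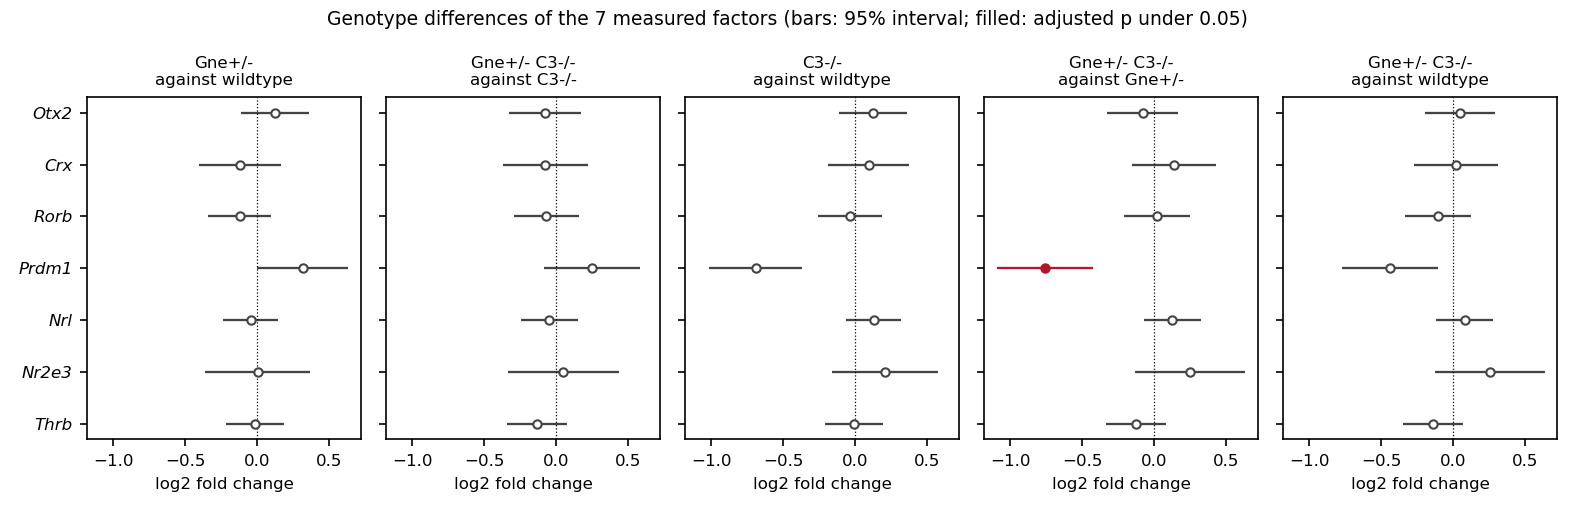
Log2 fold changes of the 7 measured factors in the 5 genotype comparisons (points; bars are 95% intervals; filled points passed an adjusted p of 0.05 in edgeR). Prdm1 in Gne+/- C3-/- against Gne+/- mice, at -0.76, is the only filled point; intervals of the other 6 factors include 0 in each panel.

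None of the upstream factors Otx2, Crx and Rorb was called between genotypes. Otx2 (chromosome 14, 48657677 to 48673819, minus strand) had log2 fold changes of -0.08 to 0.13 over the 5 genotype comparisons. It is overlapped by other annotated genes over 31.7% of its span, and over 0% of the last 1000 bases at its 3′ end. Reads that fall in more than 1 gene were left out of its counts. Run 1 levels ranged from 331 to 537 CPM (wildtype), 376 to 578 (Gne+/-), 372 to 523 (C3-/-) and 432 to 497 CPM (Gne+/- C3-/-). All these ranges overlapped. In C3-/- against wildtype mice its 95% interval was -0.11 to 0.36 (log2 scale).

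Crx (chromosome 7, 15865947 to 15879968, minus strand, no overlap with another gene) differed by -0.12 to 0.14 over the same comparisons. In run 1 it ranged from 374 to 699 CPM (wildtype), 432 to 569 (Gne+/-), 494 to 589 (C3-/-) and 358 to 669 CPM (Gne+/- C3-/-). The wildtype and the Gne+/- C3-/- mice spanned nearly the whole range of the run. Rorb (chromosome 19, 18930605 to 19111196, minus strand, no overlap) differed by -0.12 to 0.02, and its run 1 levels were 572 to 858, 569 to 780, 714 to 886 and 604 to 856 CPM in the same order of groups. Again all ranges overlapped.

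For the rod factors, too, 0 genotype differences were called. Nrl (chromosome 14, 55518978 to 55524981, minus strand) reached 2003, 1475, 1970, 2026 and 2124 CPM in run 1 wildtype retinas, while the Gne+/- retinas held 1902, 2028, 1790, 1862 and 2097 CPM. For the C3-/- retinas of that run the levels were 2072, 2085, 2242 and 2125 CPM, and for the Gne+/- C3-/- retinas 1924, 2122, 2281 and 2117 CPM. All groups overlapped, and wildtype mouse 2 was the lowest library of the run. Nrl log2 fold changes were -0.05 to 0.13, and the interval for C3-/- against wildtype mice was -0.06 to 0.32. Nr2e3 (chromosome 9, 59942771 to 59960659, minus strand) had the widest spread of the 7 factors, with a biological coefficient of variation of 24.4%, against 14.9% for Nrl. It stood at 0.26 in Gne+/- C3-/- against wildtype mice (SE 0.186, adjusted p = 1.00, edgeR) and at 0.25 against Gne+/- mice (SE 0.186, adjusted p = 0.862, edgeR). Nr2e3 is overlapped by other annotated genes over 52.4% of its span, and over 0% of the last 1000 bases at its 3′ end.

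Thrb (chromosome 14, 17660261 to 18038090, plus strand) spans the longest stretch of the 8 factors, 377830 bases, of which exons cover 1.96%. It is overlapped by other annotated genes over 24.2% of its span, and over 0% of the last 1000 bases at its 3′ end. In run 1 it ranged from 177 to 251 CPM (wildtype), 180 to 237 (Gne+/-), 205 to 237 (C3-/-) and 187 to 213 CPM (Gne+/- C3-/-). These ranges overlapped, and its log2 fold changes lay between -0.14 and -0.01. Its smallest adjusted p over the 5 genotype comparisons was 0.869 (edgeR).

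The factors' targets and partners were read from lists of rod, cone, co-regulator, progenitor and inner retina genes. Of 11 cone genes, all tested, 1 was called in Gne+/- C3-/- against Gne+/- mice and 1 in Gne+/- C3-/- against wildtype mice, against 0.19% and 0.155% of all genes. It was Pde6c in both, the catalytic subunit of the cone phosphodiesterase, which rose by 0.72 (SE 0.151, adjusted p = 0.0245, edgeR) and 0.70 (SE 0.151, adjusted p = 0.04, edgeR). In C3-/- against wildtype mice Pde6c stood at 0.57 (SE 0.146, adjusted p = 0.143, edgeR), and with both C3-/- groups against both C3+/+ groups it rose by 0.65 (SE 0.105, adjusted p = 0.000311, edgeR). In that comparison Arr3, the cone arrestin, stood at 0.30 (adjusted p = 0.299, edgeR) and Opn1mw, the green opsin that Thrb acts on, at 0.30 (adjusted p = 0.49, edgeR). Of the 11 cone genes, 4 had an unadjusted p under 0.05 there, among them Cngb3, which was lower (-0.26, adjusted p = 0.616, edgeR). The median over the 11 cone genes was 0.08 (6 positive and 5 negative), against -0.003 over all genes.

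Of 15 rod outer segment genes 14 were tested and 0 were called by edgeR in any genotype comparison. Between both C3-/- and both C3+/+ groups their median was 0.11, and 3 had an unadjusted p under 0.05. The smallest p there belonged to Reep6, a rod endoplasmic reticulum protein downstream of NRL (0.31, SE 0.124, adjusted p = 0.501, edgeR). Of 22 co-regulators 21 were tested, 0 were called and 1 had an unadjusted p under 0.05 (median -0.05), with Tbx2, a cone subtype factor, at 0.31 (SE 0.118, adjusted p = 0.475, edgeR). Sall3, which acts in cone differentiation, stood at -0.53 in C3-/- against wildtype mice (SE 0.207, adjusted p = 0.815, edgeR), at 0.22 in Gne+/- C3-/- against Gne+/- mice (adjusted p = 0.899, edgeR) and at -0.16 in the pooled comparison (adjusted p = 0.868, edgeR).

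Bipolar cell genes are of interest beside Prdm1, because PRDM1 holds them down in precursors. Of 8 bipolar cell markers, 7 were tested, 0 were called and 1 had an unadjusted p under 0.05 between both C3-/- and both C3+/+ groups, with 6 positive and 1 negative and a median of 0.17; Pcp2, wholly overlapped by another gene, was at 0. Their summed level was 2837 to 3817 CPM in the C3-/- and 2201 to 3699 CPM in the C3+/+ mice of run 1, and 2525 to 3134 against 2502 to 2896 CPM in run 2, so that the ranges overlapped in both runs. The median of the 7 was 0.03 in C3-/- against wildtype mice (5 positive) and 0.21 in Gne+/- C3-/- against Gne+/- mice (6 positive), and in Gne+/- against wildtype mice it was -0.27, with all 7 negative. Of 20 inner retina transcription factors 18 were tested, 0 were called and 1 had an unadjusted p under 0.05 (median 0.01). Vsx1, a factor of cone bipolar cells, stood at -0.44 (SE 0.187, adjusted p = 0.545, edgeR). Of 16 progenitor and upstream fate genes 14 were tested, 0 were called and 0 had an unadjusted p under 0.05 (median -0.17), with Sox2, wholly overlapped, at 0. Hes1, a Notch effector, stood at -1.07 in Gne+/- C3-/- against Gne+/- mice (SE 0.308, adjusted p = 0.277, edgeR) and at -1.18 against C3-/- mice (SE 0.307, adjusted p = 1.00, edgeR).

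The difference between sequencing runs was larger in size than any of the 5 genotype differences for 6 of the 7 factors, all but Prdm1. Between run 2 and run 1, 6 of the 7 factors passed the edgeR test, against 59.5% of all genes (30.3% as higher and 29.2% as lower), so that a call by itself says little about the factors. Nrl differed by -1.28 (SE 0.0764, fold 0.411), Otx2 by -0.61 (SE 0.0918, fold 0.655) and Nr2e3 by -0.52 (SE 0.142, fold 0.698), and Crx stood at -0.17 (SE 0.107, adjusted p = 0.177, edgeR). Rorb was higher in run 2 by 0.35 (SE 0.0815, fold 1.28), Prdm1 by 0.75 (SE 0.118, fold 1.69) and Thrb by 1.24 (SE 0.073, fold 2.36). The 9 run 2 libraries held Nrl at 661 to 1026 CPM against 1475 to 2281 CPM in the 18 run 1 libraries, without overlap. Thrb did the opposite, with 426 to 568.4 CPM in run 2 and 177 to 251 CPM in run 1.

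The direction went with gene structure. The 3 factors that were higher in run 2 have exons over 1.96% to 6.13% of their span, and the 4 with negative values have exons over 18.8% to 94.8%. Over all tested genes, the median log2 fold change between runs was 0.29 in 2806 genes with exons over less than 5% of the span, 0.16 from 5 to 10%, 0.05 from 10 to 25%, -0.20 from 25 to 50%, and -0.40 in 2650 genes over 50%. The authors' counting took in introns as well as exons, and the deposited counts do not split them. Genotype comparisons were therefore read within runs or with the run as a term, and a ratio of levels between factors is not given, since it depends on the run.

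**Figure D4:**
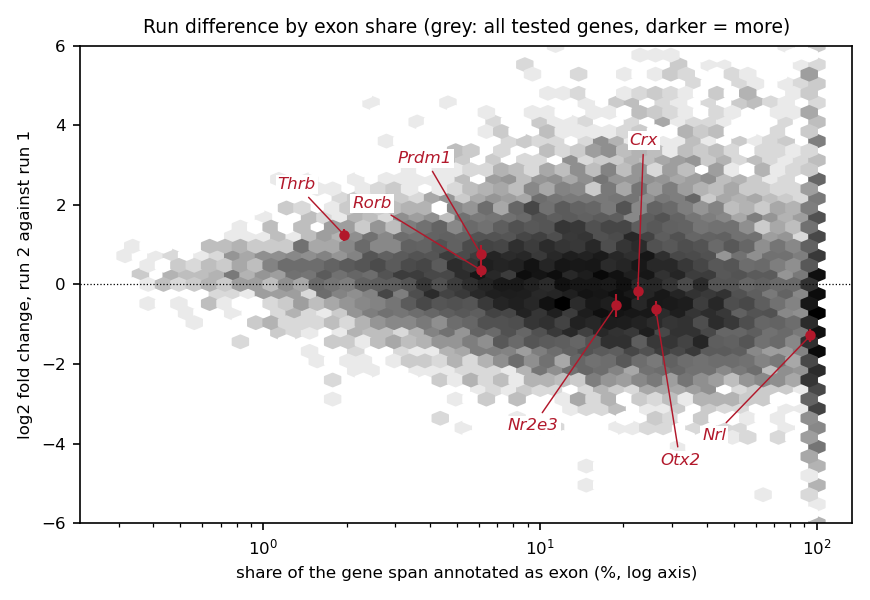
Log2 fold change between run 2 and run 1 (y axis) against the share of each gene's span annotated as exon (x axis, percent, log axis) for 17409 tested genes (grey hexagons, darker with more genes) and the 7 measured factors (points with 95% intervals). Thrb, with exons over 1.96%, lies at 1.24 and Nrl, with 94.8%, at -1.28.

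Factors that act in 1 pathway could vary together between mice. Log2 CPM values were centred on the mean of each group in each run, and 35 relations were computed over 27 libraries, which leave 19 independent deviations: 21 pairs of factors and 14 relations of a factor with the mean of the rod or the cone list. A single pair and 1 list relation passed after adjustment over the 35. Rorb and Nr2e3 varied in opposite directions (Pearson r = -0.65, permutation p = 0.00082, adjusted p = 0.0268; Spearman rho = -0.57, permutation p = 0.00695, adjusted p = 0.122). Without the 2 libraries farthest from the median r was -0.57 and no longer passed (permutation p = 0.0101, adjusted p = 0.103). In the 18 run 1 libraries alone r was -0.79. Otx2 varied with the mean of the rod genes (r = 0.67, permutation p = 0.00153, adjusted p = 0.0268; rho = 0.63, permutation p = 0.00352, adjusted p = 0.122), with r = 0.79 in run 1. Without the 2 farthest libraries r was 0.58 and this call, too, was lost (permutation p = 0.0118, adjusted p = 0.103). No relation passed by Spearman's rho, and run 2, with 5 independent deviations, was too small to be read alone.

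Otx2 and Prdm1, which OTX2 acts above, gave r = 0.58 (permutation p = 0.00783, adjusted p = 0.0913; rho = 0.49, permutation p = 0.0291, adjusted p = 0.209), and r = 0.77 in run 1. Crx and Nrl gave r = 0.46 (permutation p = 0.0306, adjusted p = 0.25; rho = 0.40, permutation p = 0.0659, adjusted p = 0.231). Nrl and its target Nr2e3 gave r = 0.42 (permutation p = 0.0909, adjusted p = 0.324; rho = 0.48, permutation p = 0.0365, adjusted p = 0.209), and r was 0.01 in run 1 alone. The points of a relation share library depth and RNA quality, whose part was not tested.

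**Figure D5:**
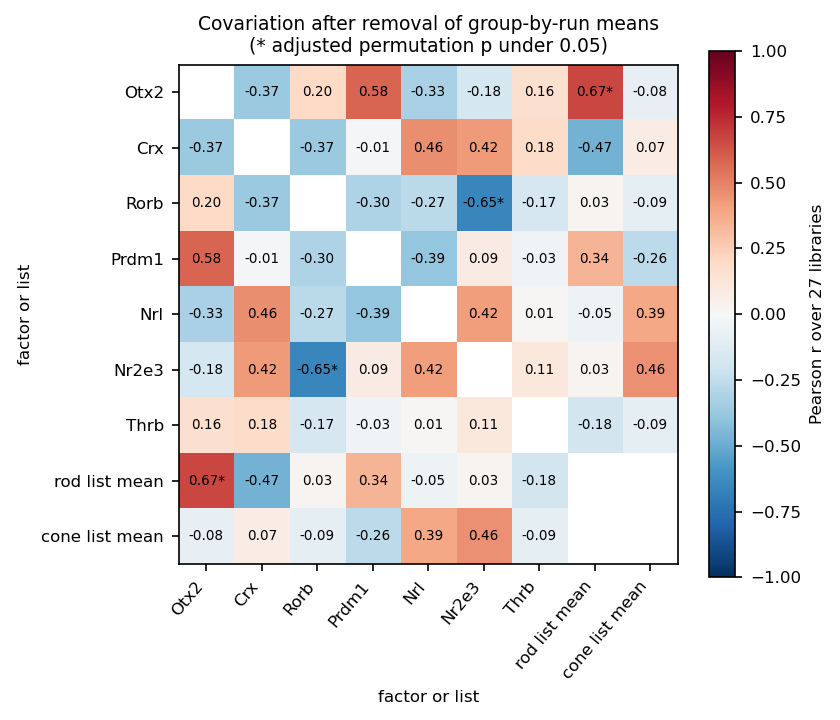
Pearson r over 27 libraries between the 7 measured factors and the means of the rod and cone gene lists, after removal of group means within each run (red positive, blue negative; an asterisk marks an adjusted permutation p under 0.05). Rorb with Nr2e3 (-0.65) and Otx2 with the rod list (0.67) carry the asterisks.

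The genes most like each factor over the 27 centred libraries were picked by the highest Pearson r among 9347 genes of at least 10 CPM, which is a description of these libraries without a test. Nrl was most like Rhpn1 (r = 0.92), C1ql1 (0.91) and Cox4i2 (0.90), and Nr2e3 was most like Plpp2 (r = 0.87), Polr2i (0.83) and Bola1 (0.81). Crx was most like Thy1 (r = 0.86), Cpe (0.84) and Trir (0.84), and Otx2 was most like Mpp5, Fam171b and Ggnbp2 (r = 0.86 for each). Rorb was most like Jade1 (r = 0.87), Snrpn (0.86) and Rfx3 (0.84). For Prdm1 the closest genes were Laptm4a (r = 0.87), Ggps1 (0.85) and Fbxo21 (0.84), and for Thrb they were Pank1 (r = 0.78), Trmt10a (0.72) and Ube2e3 (0.71). The values of Thrb were the lowest of the 7 factors.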

How the data were processed

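Total RNA (100 ng) from mouse retina was made into QuantSeq 3′ libraries, per the labels' protocols. The authors deposited raw read counts for each gene, not normalized. STAR 2.7.3a, featureCounts and the builds mm10 and GRCm38 are named, per the submitters' processing notes; counting used featureCounts 2.0.3 with Ensembl 101 over exon and whole-gene features, without strand, and left out reads in overlapping genes, per the file headers. The 27 sample files equalled the series table of 55487 genes, of which 55141 matched a symbol.

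Genes were kept with filterByExpr (minimum count 10), leaving 17409, scaled with TMM and tested in edgeR 4.0.16 (R 4.3.3) with group and run as terms, 22 residual degrees of freedom, and 95% intervals. Intervals include the spread between mice; without molecular identifiers, PCR copies are counted as reads. Alternatives used DESeq2 1.42.0, limma-voom 3.58.1, RLE factors, other filters, each run alone, no run term, the mouse number as block, a Y-linked covariate and leaving out each library. The scripts were tested on simulated data. Correlations used log2 CPM (prior count 2) and 100000 permutations within run, re-centred on the group means.

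Named genes were the 8 factors, Gne and C3, up to 3 genes with the smallest p of each list in the comparisons described, and the 3 genes most like each factor. The factors and lists were chosen with earlier results of these data known. Slc5a8, Tmpo, Gm48877 and Cngb3 were named after their values were seen. Of the genes this rule names, 1 is not reported here.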

Additional observations from a re-analysis of the deposited data

Results flagged for a closer look

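In 2 of 28 sets of a factor and a group of 4 or 5 mice in run 1, a single mouse stood apart from the rest of its group; chance alone gives about 1 in 20. Nrl in wildtype mouse 2, at 1475 CPM against 1970 to 2124 CPM in the other wildtype mice of run 1, lay apart by 0.793 of the group's whole range in log2 CPM. Crx in Gne+/- mouse 5, at 569 CPM against 432 to 465.7 CPM in the other Gne+/- mice of run 1, lay apart by 0.725 of the range in log2 CPM. Neither gene was called in a genotype comparison with or without these libraries.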

How the results depend on the processing

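The pooled Prdm1 difference between both C3-/- and both C3+/+ groups kept its direction and its call under the alternatives run except without the run term, and ran from -0.77 to -0.66 when 1 library was left out. Of 420 values of the 7 factors in the 6 genotype comparisons under alternatives other than leaving out a library, 370 kept direction and side of the threshold, 44 changed sign, 4 lost a call and 2 gained one. The largest value that changed sign was 0.539 in size and none of the 44 was called before or after. The cause was not tested. Groups of 2 to 5 mice in a run limit the precision, and a p over the threshold does not show that a factor did not differ. Correlations in run 2 alone were not run, since too few independent deviations remain.

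Counts of called genes moved with the settings. With no low-count filter, 72 genes were called between Gne+/- and wildtype mice, 9 between Gne+/- C3-/- and C3-/- mice, 30 for the difference of the Gne effects, 91 between C3-/- and wildtype mice, 306 between Gne+/- C3-/- and Gne+/- mice, 118 between Gne+/- C3-/- and wildtype mice, 447 for pooled C3 and 34 for pooled Gne. With DESeq2 the Gne+/- to wildtype count was 8, C3-/- to wildtype 63, Gne+/- C3-/- to Gne+/- 87, Gne+/- C3-/- to wildtype 56, pooled C3 171 and pooled Gne 2. Without the run term both Gne comparisons and pooled Gne gave 0, the 3 comparisons of a C3-/- with a C3+/+ group gave 13 each, and pooled C3 gave 43. In run 2 alone Gne+/- C3-/- to C3-/- gave 5, the difference of the Gne effects 4, Gne+/- C3-/- to Gne+/- 11, Gne+/- C3-/- to wildtype 15, pooled C3 34 and pooled Gne 5. With 1 library left out they ran from 1 to 2 for Gne+/- against wildtype and from 20 to 40 for Gne+/- C3-/- against Gne+/-. Factors called in C3-/- against wildtype rose from 0 to 1 (Prdm1) with RLE factors and with DESeq2, and without wildtype mouse 8 or C3-/- mouse 1 (0 to 1 over libraries left out). Factors called in Gne+/- C3-/- against Gne+/- fell from 1 to 0 without the run term, in run 1 alone, in run 2 alone and with the replicate block, and ran from 0 to 1 over libraries left out. Pooled over Gne genotypes, Prdm1 was no longer called without the run term (0 factors). Pairs of factors that vary together numbered 1, with 2 in run 1 alone and 0 without the 2 libraries farthest from the median.

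The mouse number was fitted as a replicate block in place of the run. Same-numbered mice showed little shared deviation (median r = 0.0614 over 31 pairs, -0.183 to 0.684, against 0.00588 over 120 other pairs, -0.725 to 0.706). These values gave no sign of pairing by number but cannot exclude it. With the block Prdm1 stood at -0.66 in Gne+/- C3-/- against Gne+/- (adjusted p = 0.218, edgeR), -0.74 in C3-/- against wildtype (adjusted p = 0.0783, edgeR) and -0.70 in the pooled comparison (adjusted p = 0.00132, edgeR). Values that changed sign with the block were Thrb at 0.039 (Gne+/- to wildtype), Otx2 at 0.0075 (Gne+/- C3-/- to C3-/-) and 0.029 (Gne+/- C3-/- to Gne+/-), Rorb at 0.0070 (C3-/- to wildtype), and Crx at -0.10 and Prdm1 at 0.081 (difference of the Gne effects).

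For Gne+/- against wildtype, sign changes were Nr2e3 at -0.014 with the stricter filter and -0.0071 with RLE factors or DESeq2, Thrb at 0.043 without the run term, 0.20 in run 2 and 0.018 in limma-voom, and Nrl at 0.040 in run 1. For Gne+/- C3-/- against C3-/- they were Nrl at 0.073 without the run term and 0.0047 in run 1, Otx2 at 0.019 in run 1, and Rorb at 0.086 and Nr2e3 at -0.48 in run 2. For the difference of the Gne effects they were Nrl at 0.0087 without a filter, 0.027 with the stricter filter, 0.010 with RLE factors or DESeq2, 0.089 without the run term and 0.066 in run 2, Crx at -0.0073 in run 1 and -0.00024 in limma-voom, Rorb at -0.013 and Prdm1 at 0.040 in run 1, and Nr2e3 at -0.54 in run 2 and -0.013 with the Y-linked covariate. For C3-/- against wildtype they were Rorb at 0.0051, Nrl at -0.013 and Thrb at 0.19 without the run term, Rorb at 0.031 in run 1, Crx at -0.037 and Thrb at 0.049 in run 2, and Thrb at 4.4e-06 with the Y-linked covariate and 0.0073 in limma-voom. For Gne+/- C3-/- against Gne+/- they were Rorb at -0.031 and Nr2e3 at -0.19 in run 2, and for Gne+/- C3-/- against wildtype Otx2 at -0.057, Crx at -0.18, Nrl at -0.031 and Nr2e3 at -0.13 in run 2.

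With 1 library left out, values that changed sign in at least 1 case ran as follows. For Gne+/- against wildtype Nrl ran from -0.10 to 0.0092, Nr2e3 from -0.062 to 0.096 and Thrb from -0.057 to 0.026. For Gne+/- C3-/- against C3-/- Crx ran from -0.16 to 0.0096 and Nr2e3 from -0.066 to 0.25. For the difference of the Gne effects Crx ran from -0.049 to 0.13, Rorb from -0.0057 to 0.11, Prdm1 from -0.15 to 0.059, Nrl from -0.061 to 0.055 and Nr2e3 from -0.070 to 0.24. For C3-/- against wildtype Rorb ran from -0.094 to 0.012, Nr2e3 from -0.00026 to 0.29 and Thrb from -0.050 to 0.032. For Gne+/- C3-/- against Gne+/- Rorb ran from -0.045 to 0.066, and against wildtype Otx2 ran from -0.0071 to 0.11 and Crx from -0.072 to 0.12.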
